A study of Mus musculus with 2 samples.

Results

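Oxidative phosphorylation is carried out in the inner mitochondrial membrane. Complexes I to IV, the respiratory chain, pass electrons from NADH and succinate to oxygen, and complexes I, III and IV pump protons. Complex V, the ATP synthase, uses the returning protons to make ATP. Most subunits are encoded in the nucleus and a small set in mitochondrial DNA, so that most of the complexes are built from both. Articular chondrocytes live in a tissue without blood vessels and make much of their ATP by glycolysis, and their respiratory chain is also a source of reactive oxygen species.

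The genes described here are the nuclear genes of the 5 complexes, chosen by symbol (Nduf, Sdha to Sdhd, Uqcr, Cyc1, Cox4 to Cox8 and Atp5) among the genes that the array probes name through their RefSeq accessions. There were 98 such genes, measured by 129 probes, of 20660 named genes in all. They comprise 85 subunits, of which 36 belong to complex I, 4 to complex II, 9 to complex III, 19 to complex IV and 17 to complex V, and 13 assembly factors, which help to build the complexes without being catalytic parts of them. The brightest probe of each gene was used. A total of 96 of the 98 genes were detected, meaning well above background on both arrays. Cox7b2 and Cox8c, complex IV isoforms known mainly from testis, were not.

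The RNA came from primary chondrocytes of 6-day-old C57BL/6J mice, grown for 48 h on fibronectin in silicon stretch chambers and then stretched cyclically by 10% at 0.5 Hz for 30 min. Loading of this kind was used in the study as a model of mechanical overload of cartilage. One group is RNA taken before loading (1 array) and the other RNA taken 24 h after it (1 array), and for both the labels give the strain but no further genotype. Collagenase D was used to isolate the cells per the methods, and the sources used here do not say whether cells of several animals were pooled. A 24 h culture without loading is not part of the comparison, and loading and further culture cannot be told apart. With 1 array per time point there was no test and no p-value, and every difference below describes these 2 arrays.

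Each value is the processed intensity of a one-colour Agilent spot, after background subtraction by the scanner software, and log2 ratios give the later array minus the earlier one, with each array set relative to its own 75th percentile. These percentiles were 466.4 before loading and 466.2 at 24 h. The error given with a ratio is the within-array error that the software attaches to both spots, which was 0.20 for a typical gene and covers no variation between cultures. Both arrays lay on 1 slide, and of all spots apart from controls, 59.1% and 57.7% stood well above background. All 12 chondrocyte markers were detected, with a median ratio of 0.07 and a range from -0.86 to 0.56, in which Matn1 and Hapln1 were past 1.3-fold higher and Chad and Prg4 past 1.3-fold lower, and the intensity of Col2a1, the main cartilage collagen, was 499543 before loading and 474876 at 24 h.

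The promoters of 4 of these genes are shown as RefSeq gives them for mouse build GRCm38.p6, each as the 250 bases before the transcription start, 5′ to 3′ on the strand of the gene. They are the subunit gene with the lowest ratio among the widely expressed genes of complex IV (Cox6a1), a gene whose promoter holds the most kinds of motif (Atp5l), the complex I subunit with the lowest ratio (Ndufs8) and the gene with the highest ratio of all (Cox8b). Capitals mark letters that match, on either strand, the core motifs of nuclear respiratory factor 1 (NRF1, CGCATGCG), ETS factors such as GABP (CCGGAAG), YY1 (AAGATGG), estrogen-related receptors (ERR, AAGGTCA) or hypoxia-inducible factors (HIF, ACGTG). The windows lie on the minus strand at chr5:115348959-115349208 (Cox6a1), chr9:44920743-44920992 (Atp5l), chr19:3912775-3913024 (Ndufs8) and chr7:140900447-140900696 (Cox8b).
Cox6a1: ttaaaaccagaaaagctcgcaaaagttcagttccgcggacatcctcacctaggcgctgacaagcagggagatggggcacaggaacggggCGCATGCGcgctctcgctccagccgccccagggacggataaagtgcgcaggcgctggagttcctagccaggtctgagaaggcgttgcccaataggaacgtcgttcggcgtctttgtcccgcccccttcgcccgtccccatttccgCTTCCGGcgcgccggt
Atp5l: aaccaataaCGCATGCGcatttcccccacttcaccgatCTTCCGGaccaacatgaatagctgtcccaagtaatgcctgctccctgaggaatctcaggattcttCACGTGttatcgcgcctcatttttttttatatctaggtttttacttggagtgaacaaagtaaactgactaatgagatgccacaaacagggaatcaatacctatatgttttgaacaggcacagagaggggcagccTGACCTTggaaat
Ndufs8: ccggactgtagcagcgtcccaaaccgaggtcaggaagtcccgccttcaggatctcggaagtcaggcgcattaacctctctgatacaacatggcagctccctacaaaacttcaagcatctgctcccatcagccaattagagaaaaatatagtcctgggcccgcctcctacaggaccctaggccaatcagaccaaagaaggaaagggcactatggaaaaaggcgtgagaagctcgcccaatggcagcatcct
Cox8b: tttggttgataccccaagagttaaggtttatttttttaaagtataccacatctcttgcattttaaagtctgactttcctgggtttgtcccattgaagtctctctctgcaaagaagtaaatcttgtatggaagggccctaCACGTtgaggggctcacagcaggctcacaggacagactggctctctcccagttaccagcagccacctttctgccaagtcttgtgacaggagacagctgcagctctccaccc
The Cox6a1 window holds an NRF1 core and an ETS core, and the Atp5l window holds these as well as an ERR core and a CACGTG, which reads as the HIF core on both strands. The Ndufs8 window holds none of the 5 motifs, and the Cox8b window holds 1 HIF core.

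Across the complexes the ratios were small and mostly below 0. Of the 96 detected genes, 76 had a log2 ratio below 0, against 52.4% of all 14222 detected genes. For 70 of the 96 the ratio, of either sign, was within 1 error of 0, and so it was for 8056 of all 14222. The median over the 83 detected subunits was -0.09, with quartiles of -0.19 and -0.05, and the median over all detected genes was -0.01, with quartiles of -0.19 and 0.16. The direction of the subunits as a whole depended on the scaling: with each array scaled to its median in place of its 75th percentile, the median of all genes moved to 0.08 and that of the subunits to 0.0049, and 44 of the 96 genes lay below 0. Relative to the median of all genes, the subunits were lower by 0.079 on the log2 scale with either of these scalings and with scaling to the spike-in controls, by 0.038 with quantile normalization and by 0.036 with loess.

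Few of the genes passed a fold threshold. At 2-fold, 1 of the 96 genes was higher at 24 h (Cox8b), where 0.668% of all detected genes were, and 0 were lower, where 1.83% of all detected genes were. At 1.3-fold, the same gene was the only one that was higher, against 9.07% of all detected genes, and 4 were lower (Cox6a2, Ndufs8, Ndufa4l2 and Ndufab1), against 11.8%. These are smaller shares than the background in both directions at 1.3-fold, but the background includes many dimmer genes. The median log2 intensity relative to the 75th percentile was 0.80 over all detected genes and 5.29 over the 96. The SD of the ratio over all detected genes was 0.50 at intensities of -4 to -3 on this scale and 0.24 at 5 to 6. No share matched for intensity was computed. Ndufa9 and the assembly factor Ndufaf8 lay just short of 1.3-fold, at 1.28-fold and 1.27-fold lower.

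**Figure D1:**
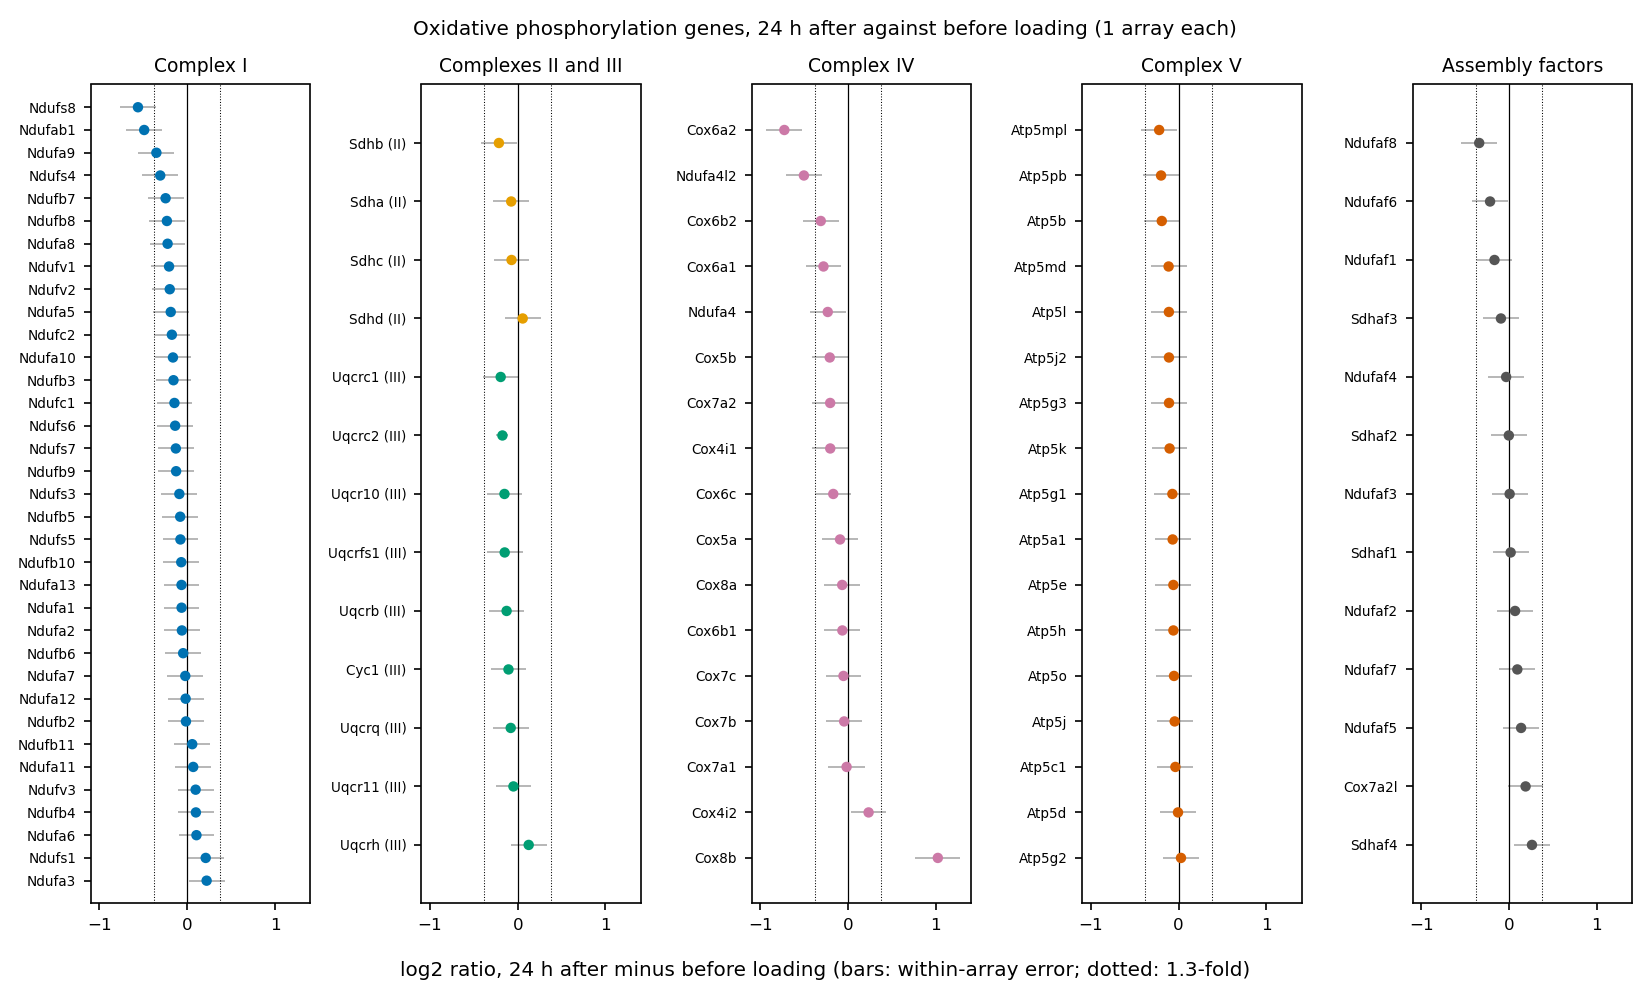
Log2 ratio of each detected gene (24 h after minus before loading, x axis), with genes on the y axis and 1 panel for each of complex I, complexes II and III, complex IV, complex V and the assembly factors; bars are the within-array error, from 1 array per time point, and dotted lines mark 1.3-fold. Most points lie within 0.38 of 0, Cox8b lies at 1.02 and Cox6a2 at -0.73, and of the 96 detected genes, 1 of which is not drawn, 76 lie below 0 with this scaling and 44 with scaling to the array median.

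Most probes of these genes carried strong signals, and over all genes the ratio varied with the signal. By level, the mean log2 intensity relative to the 75th percentile, the median ratio of all detected genes was -0.11 between -4 and -3, 0.02 between 0 and 1, -0.01 between 4 and 5, -0.02 between 5 and 6, -0.06 between 6 and 7 and -0.09 between 7 and 8, and scaling to the array median turns the bands from 4 to 8 above 0. A total of 68 subunits had a level between 4 and 8. Their median ratio was -0.08, with 86.8% below 0, and the median of the 1704 other genes in the same range, assembly factors left out, was -0.02, with 54.2% below 0. The SD of the ratio across genes in this range was 0.11 for the subunits and 0.26 for all genes. By band, the median of the subunits was -0.11 between 4 and 5, and that of the other genes -0.003. Between 5 and 6 these medians were -0.10 and -0.02, and between 6 and 7 they were -0.09 and -0.05. Between 7 and 8 they were -0.07 and -0.10. The subunits thus had the lower median in each band from 4 to 7 and the higher one between 7 and 8, with 5 subunits. Over the range from 4 to 8, the ratios of the subunits were closer together than those of genes in general.

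**Figure D2:**
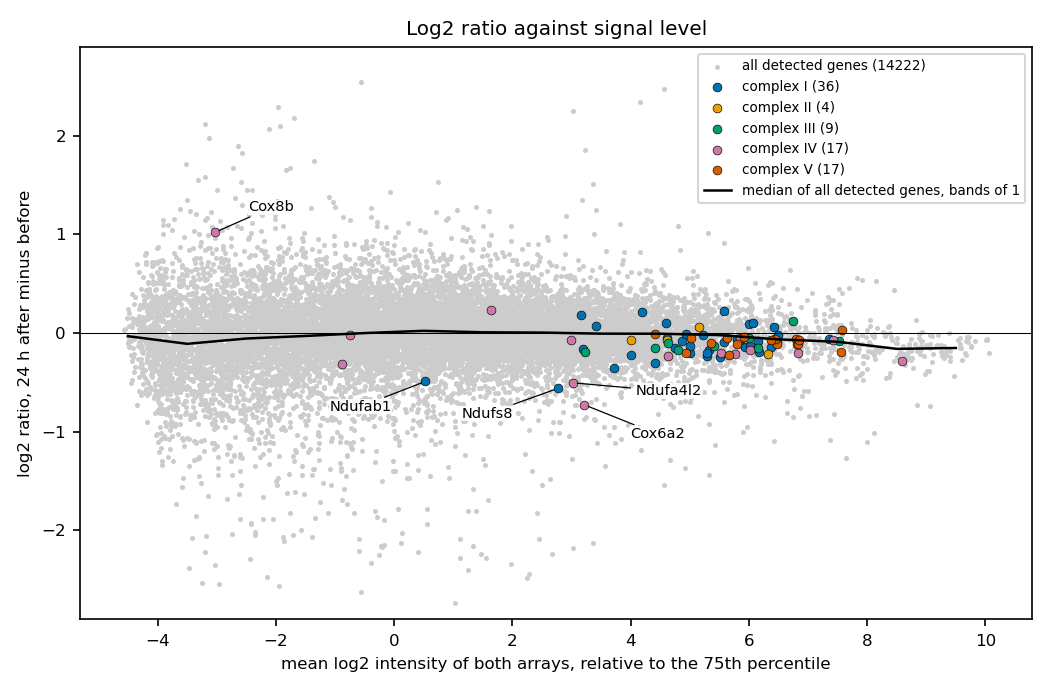
Log2 ratio (24 h after minus before loading, y axis) against the mean log2 intensity of both arrays relative to the 75th percentile (x axis) for all 14222 detected genes in grey and the subunits coloured by complex, with the median of all genes in bands of 1 as a line. At levels of 4 to 8 the subunits form a narrow band with a median of -0.08. From 4 to 7 they lie mostly below the line. The values of the line from 4 to 8 run from -0.01 to -0.09 with this scaling, and the labelled genes lie at lower levels.

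Complex I, NADH dehydrogenase, takes electrons from NADH to ubiquinone through a chain of iron-sulfur clusters in its hydrophilic arm. Its 36 subunits had a median ratio of -0.08 and ranged from -0.56 to 0.22, with 28 below 0, and the median was 0.01 with scaling to the array median. The 7 nuclear core subunits, which hold the flavin, the clusters and the ubiquinone site, had a median of -0.13 and the 29 accessory subunits a median of -0.08. The core subunits did not share a direction.

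Ndufs8, a core subunit with iron-sulfur clusters close to the ubiquinone site, gave intensities of 3861 (before loading) and 2615 (24 h after). It was 1.48-fold lower at 24 h, a log2 ratio of -0.56 with an error of 0.20, and its ratio lay between -0.56 and -0.46 under every setting tried. Ndufs7, which carries the last cluster of the chain, had intensities of 15597 and 14250 and a ratio of -0.13. Ndufs3, another core subunit of this side, had intensities of 22998 and 21601 and a ratio of -0.09, within 1 error of 0, as was that of Ndufs7.

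On the NADH side, Ndufv1, the subunit that binds NADH and the flavin, had intensities of 19557 and 16935 and a ratio of -0.21. Its partner Ndufv2 had intensities of 16127 and 14042 and a ratio of -0.20. Ndufs1, the largest subunit and carrier of several clusters, had intensities of 7901 and 9139 and a ratio of 0.21. The spot of Ndufv1 lies in an area of the slide where at least 3 neighbouring spots within 100 µm were more than 2-fold lower at 24 h, as does that of the assembly factor Ndufaf3, and the part of that area in either ratio was not tested.

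Of the accessory subunits, Ndufab1 had the lowest ratio. It is the mitochondrial acyl carrier protein, which also serves mitochondrial fatty acid synthesis. Its intensity was 796 before loading and 567 at 24 h, a ratio of -0.49 with an error of 0.20. Ndufa9, which binds NADPH at the joint between both arms, had intensities of 6975 and 5465 and a ratio of -0.35, and Ndufs4, an accessory subunit of the hydrophilic arm, had intensities of 10995 and 8880 and a ratio of -0.31. At the other end, Ndufa3 had the highest ratio of complex I, 0.22, with intensities of 20632 and 24037. The subunit families named for their fractions overlapped throughout: the 12 Ndufa genes of complex I ranged from -0.35 to 0.22, the 10 Ndufb genes from -0.25 to 0.10 and the 8 Ndufs genes from -0.56 to 0.21.

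Complex II, succinate dehydrogenase, is the only one of the complexes encoded wholly in the nucleus and is also an enzyme of the tricarboxylic acid cycle. Sdhb, its iron-sulfur subunit, had intensities of 40088 before loading and 34540 at 24 h, a ratio of -0.21, and a further Sdhb probe gave -0.24. Sdha, the flavoprotein that oxidises succinate, had intensities of 11685 and 11096 and a ratio of -0.07, and the membrane anchor Sdhc also had -0.07, with 0.03 from its other probe. Sdhd, the other anchor, had intensities of 16317 and 16966 and a ratio of 0.06. The median of the 4 genes was -0.07, and 0.03 with scaling to the array median, and 3 of the 4 ratios lay within 1 error of 0.

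Complex III, cytochrome bc1, passes electrons from ubiquinol to cytochrome c. Its 9 nuclear subunits had a median of -0.13 and ranged from -0.19 to 0.13, with 8 below 0, and the median stayed below 0 under every setting tried, between -0.15 and -0.03. Uqcrfs1, the Rieske iron-sulfur protein, had intensities of 10404 and 9383 and a ratio of -0.15, and Cyc1, cytochrome c1, had intensities of 11993 and 11145 and a ratio of -0.11. Uqcrc1, a large matrix-side subunit, had the lowest ratio, with intensities of 4656 and 4068. Uqcrh, the hinge protein that helps cytochrome c1 to meet cytochrome c, had the highest ratio, 0.13, with intensities of 47769 and 52076, and its other probe gave the same value to 2 decimals.

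Uqcrc2, the partner of Uqcrc1, was the subunit measured most closely. Its probe is printed in 9 spots per array, and the ratio was below 0 in each of them, from -0.28 to -0.13, with a mean of -0.17 and an SD of 0.05 between spots. Over the 56 probes with at least 8 spots and a level above 3, the SD between spots had a median of 0.06. The error of 0.20 that the software gives for a typical gene is larger than this spread. A spread of this size shows how closely spots of 1 array pair repeat one another and says nothing about other cultures.

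Uqcrb, a small subunit at the ubiquinone site, was the gene whose probes differed most. Its brightest probe had intensities of 20707 and 18958 and a ratio of -0.13, and its dimmest probe, with 8988 and 8255, gave -0.12. The remaining probe had intensities of 15977 and 9453 and gave -0.76. The median range between probes was 0.13 over the 23 genes here with more than 1 detected probe and 0.19 over the 3635 such genes of the arrays. In 10 of the 23 (Atp5h, Atp5j2, Cox7c, Ndufaf4, Ndufb11, Ndufb4, Ndufb5, Ndufv3, Sdhc and Uqcr10) the probes gave ratios on both sides of 0. The probe sequences are not used here, so that what the diverging probe matches was not tested.

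Complex IV, cytochrome c oxidase, reduces oxygen to water, and several of its nuclear subunits exist as a widely expressed form and a form restricted to certain tissues. Its 17 detected subunits had a median of -0.17, which stayed below 0 under every setting, between -0.17 and -0.06. It was the lowest of the 5 complexes with every scaling and background setting, but not without the filter on dim probes, where Cox7b2 and Cox8c enter and it was -0.09 with complex III at -0.13, nor with Ndufa4 and Ndufa4l2 counted in complex I by their symbols, where it was -0.09 and complex I was -0.11. All 11 widely expressed subunits had ratios below 0, from -0.28 to -0.05, with 6 of them within 1 error, although the dimmer probes of Cox7c gave 0.06 and 0.11. With scaling to the array median, which adds 0.098 to every ratio, the 5 that lie closest to 0 (Cox5a, Cox8a, Cox6b1, Cox7c and Cox7b) turn above it. The 6 detected tissue isoforms, among which Ndufa4l2 is counted here as a relative of Ndufa4, ranged from -0.73 to 1.02. This is a wider spread than that of any complex without them.

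Among the widely expressed subunits, Cox6a1, whose promoter is shown above, had the lowest ratio, -0.28, with intensities of 197973 before loading and 162774 at 24 h. Cox4i1, the largest nuclear subunit, had intensities of 56725 and 49203 and a ratio of -0.20. Ndufa4, a subunit of complex IV despite its name, had intensities of 12575 and 10694 and a ratio of -0.23. Cox5b, Cox7a2 and Cox6c had ratios of -0.21, -0.21 and -0.17, and Cox5a, Cox8a, Cox6b1, Cox7c and Cox7b lay between -0.09 and -0.05.

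Cox6a2, the form of Cox6a known from heart and skeletal muscle, was the lowest of all 96 genes. Its intensity was 5584 before loading and 3370 at 24 h, 1.66-fold lower, with a ratio of -0.73 and an error of 0.20. Its ratio lay between -0.73 and -0.63 under every setting tried. Cox7a1, the muscle form of Cox7a, had intensities of 281 and 277 and a ratio of -0.02, so that these muscle forms did not share a ratio.

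Of 10 skeletal muscle markers, 7 were detected, with a median of -0.13 and a range from -0.79 to 1.15, and their summed intensity was 5347 before loading and 3704 at 24 h. Much of that sum is Tnni2, a troponin of fast muscle, with intensities of 3348 and 1940 and a ratio of -0.79. Tnnt3 and Acta1 were also lower, at -0.78 and -0.31, whereas the myosins Myh3 and Myh8 were higher, at 0.64 and 1.15. Ckm, Mylpf and Myod1 were not well above background. The part of muscle cells in the Cox6a2 ratio was not tested, and in bulk RNA fewer cells of a type and less RNA per cell cannot be told apart.

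Cox8b, the form of Cox8 known in rodents from muscle and brown fat, was the highest of the 96 genes and the only one past 2-fold. Its intensity was 40.2 before loading and 81.5 at 24 h, 2.03-fold higher, with a ratio of 1.02 and an error of 0.26. These are dim signals, since detection began at 17.3 on the array before loading and at 17.8 on the later array, and with normexp background correction the ratio was 0.64. The widely expressed Cox8a had intensities of 81470 and 77659 and a ratio of -0.07.

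Adipocyte markers were higher at 24 h together with Cox8b. Of 8 such genes, 5 were detected, with a median ratio of 1.53 and a range from 0.95 to 2.29. All 5 had higher values at 24 h and 4 were past 2-fold, where 0.668% of all detected genes were. The summed intensity of the 8 genes was 1372 before loading and 3271 at 24 h. Adiponectin (Adipoq) had intensities of 54.2 and 265 and Cidea, a lipid droplet protein of brown fat, 457 and 1318, whereas Ucp1, which defines brown fat, Cidec and Lep were not well above background. Apart from Cidea, the markers past 2-fold (Adipoq, Cfd and Plin1) were about as dim as Cox8b. Cfd stood at 26.9 and Plin1 at 61.7 before loading. The 0.668% covers genes of all signal levels, and the marker ratios were not recomputed under other settings. The part of adipocyte-like cells in the Cox8b ratio was not tested.

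Ndufa4l2, a relative of Ndufa4 that hypoxia-inducible factor 1 is known to induce, had intensities of 4525 before loading and 3188 at 24 h. It was 1.42-fold lower, with a ratio of -0.50 and an error of 0.20, and its ratio lay between -0.50 and -0.41 under every setting. Cox4i2, the alternative form of Cox4 known from lung and also as a target of hypoxia, had intensities of 1334 and 1566 and a ratio of 0.23. The error of that ratio was 0.20. Cox6b2, a form known from testis, had intensities of 282 and 227 and a ratio of -0.31. The ratios of Ndufa4l2 and Cox4i2 thus had opposite signs under every setting.

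**Figure D3:**
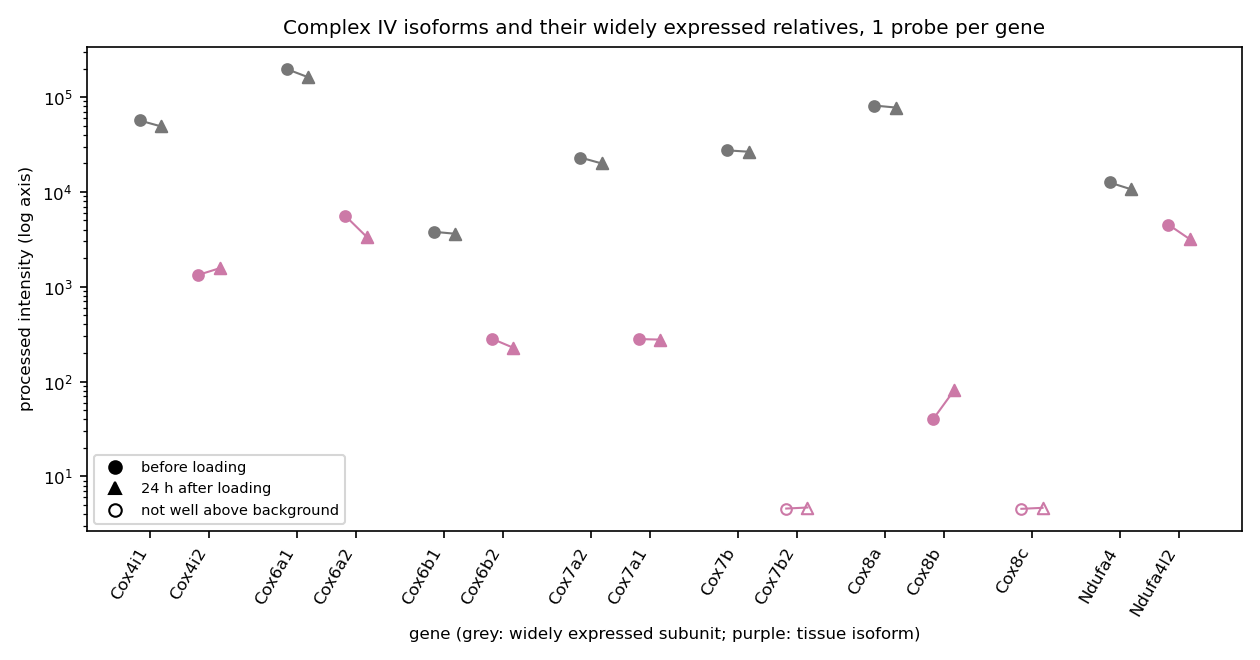
Processed intensity (log axis) before loading (circles) and 24 h after (triangles) for the tissue isoforms of complex IV in purple and their widely expressed relatives in grey, 1 array per time point; open symbols are not well above background, and heights of different genes are not comparable because their probes differ. Cox8b goes from 40.2 to 81.5, Cox6a2 from 5584 to 3370 and Ndufa4l2 from 4525 to 3188, and the log2 ratios of the grey pairs lie between -0.28 and -0.05 with this scaling.

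Complex V, the ATP synthase, joins a catalytic head in the matrix to a ring of c subunits in the membrane. Its 17 subunits had the tightest ratios of the 5 complexes, from -0.22 to 0.03 with an SD of 0.07, and 16 were within 1 error of 0. The median was -0.07 with 16 below 0, and it was 0.03 with scaling to the array median, 0.04 with quantile normalization and 0.01 with loess. The direction of this complex therefore depended on the scaling more than that of any other.

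Atp5b, the catalytic beta subunit, had intensities of 93761 before loading and 81998 at 24 h and a ratio of -0.19. Atp5a1, the alpha subunit, had intensities of 39781 and 37912 and a ratio of -0.07, and Atp5c1, the gamma subunit that turns inside the head, had a ratio of -0.04. Atp5g1, Atp5g2 and Atp5g3, separate genes for the same mature c subunit, had ratios of -0.07, 0.03 and -0.11, and Atp5g2 was the highest of the complex, with intensities of 88506 and 90087. Atp5mpl, a small membrane subunit, was the lowest, at -0.22, with intensities of 25496 and 21843. Copies of several of these genes, such as the 3 c subunit genes and processed pseudogenes, are alike in sequence, and a probe may not tell them apart.

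**Figure D4:**
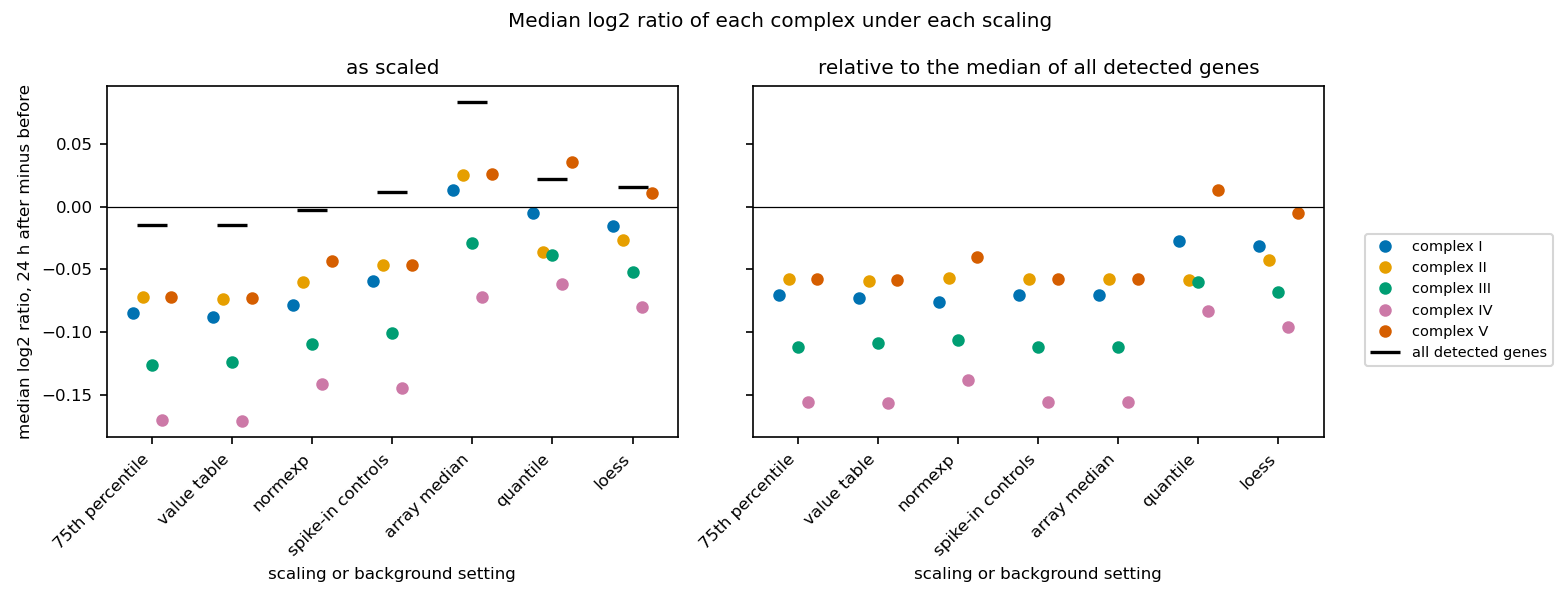
Median log2 ratio (24 h after minus before loading, y axis) of the detected subunits of each complex under 7 scaling or background settings (x axis), as scaled on the left and relative to the median of all detected genes on the right. Complex IV is the lowest in each of these settings, and complexes I, II and V lie above 0 on the left with scaling to the array median.

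The 13 assembly factors had a median of 0.01 and ranged from -0.34 to 0.26, with 7 above 0, and their median lay between 0.00 and 0.10 over all settings. The lowest was Ndufaf8, with intensities of 1416 before loading and 1117 at 24 h, and the highest was Sdhaf4, a factor that acts on Sdha before it joins Sdhb, with intensities of 3297 and 3946. Cox7a2l, which helps to join complexes III and IV into supercomplexes, had intensities of 60937 and 69346 and a ratio of 0.19, and its other probes gave 0.09 and 0.22. A further list of 33 detected assembly factors with other names had a median of -0.03, with 17 below 0, against 52.4% of all detected genes. Of these 33, 2 were past 1.3-fold higher (Sco1 and Tmem177), against 9.07% of all detected genes. Past 1.3-fold lower were 3 (Coa5, Coa7 and Taco1), against 11.8%. The assembly factors were thus spread to both sides of 0 with this scaling. The median level of the 13 was 2.40, against 5.52 for the subunits, and the ratio varied with the level over all genes. With loess, the 13 had a median ratio of 0.004 and the subunits one of -0.02. With quantile normalization these medians were 0.01 and -0.02.

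Lists around the complexes were read in the same way. The 14 genes of the mobile carriers and of ubiquinone synthesis had a median of -0.15, with 9 below 0 and 3 past 1.3-fold lower, and Cycs, cytochrome c, had intensities of 20785 and 17776 and a ratio of -0.22. The 17 tricarboxylic acid cycle genes had a median of -0.06, with 10 below 0 and 0 past 1.3-fold. The exchangers of ADP and ATP, Slc25a4 and Slc25a5, had ratios of 0.18 and 0.16, and Slc25a3, the phosphate carrier, -0.03. The 77 detected mitochondrial ribosomal protein genes, whose products translate the subunits encoded in mitochondrial DNA, had a median of -0.14, with 59 below 0 and 6 past 1.3-fold lower, and the 24 protein import genes a median of -0.06, with 17 below 0. Of all detected genes, 52.4% were below 0, 9.07% past 1.3-fold higher and 11.8% past 1.3-fold lower. These list medians are on the 75th percentile scaling, and scaling to the array median adds 0.098 to each, which turns those of the tricarboxylic acid cycle genes, the protein import genes and the assembly factors with other names above 0. Of the uncoupling proteins and their relatives, 4 were detected, with a median of 0.14, and Ucp1 was not.

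**Figure D5:**
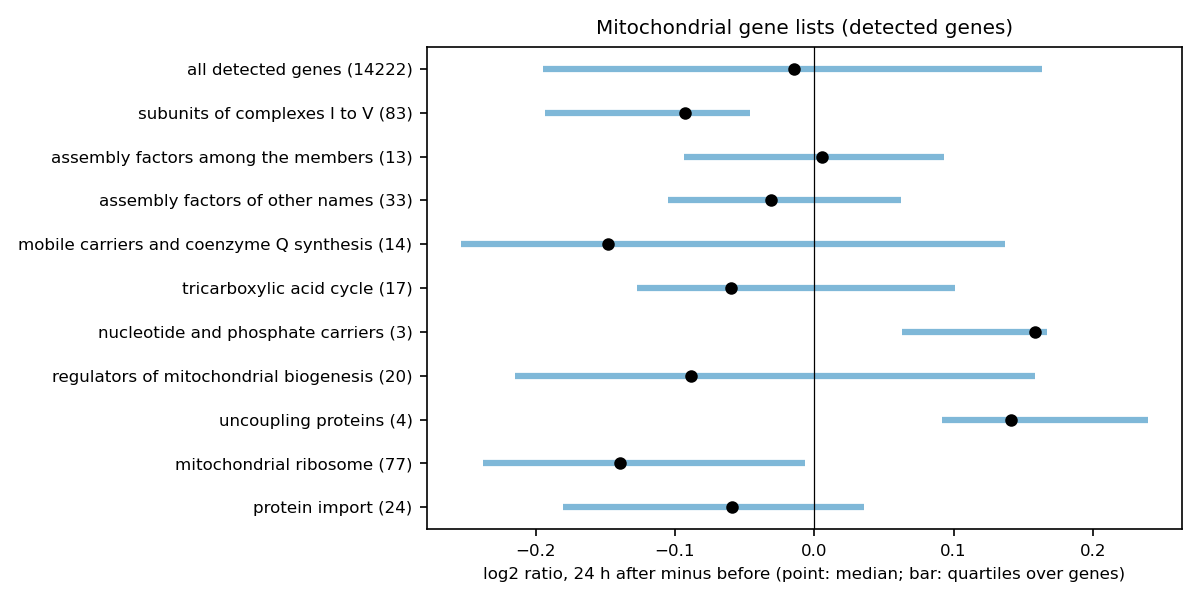
Median (point) and quartiles over genes (bar) of the log2 ratio, 24 h after minus before loading (x axis), for the subunits, the assembly factors, 8 further mitochondrial gene lists and all detected genes (y axis, with the number detected). The mitochondrial ribosome lies at -0.14 and the subunits at -0.09 with all genes at -0.01, and the point of all genes moves to 0.08 and that of the subunits to 0.0049 with scaling to the array median.

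Regulators of mitochondrial biogenesis, which include factors known to bind promoters of these genes, mostly had small ratios. Of 21 regulators, 20 were detected, with a median of -0.09, and scaling to the array median turns this median above 0. Of the 20, 13 were below 0, 0 past 1.3-fold higher and 1 past 1.3-fold lower. The shares of all detected genes were 52.4%, 9.07% and 11.8%. The gene past 1.3-fold was Gabpb2, a partner of the ETS factor Gabpa, with intensities of 216 and 131 and a ratio of -0.72. Nrf1 and Tfam, the mitochondrial transcription factor, had ratios of -0.22 and -0.21, Gabpa 0.16, and the coactivator Ppargc1a, with dim intensities of 94.3 and 119, 0.34.

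Promoter windows were found for 80 of the 98 genes, and 18 (among them Atp5a1, Atp5mpl, Cox4i1, Cox4i2, Cox6a2, Cox6c, Cox8c, Cyc1, Ndufa2, Ndufa4l2, Ndufaf6, Ndufb9, Ndufs1, Sdhc, Uqcrb, Uqcrc2 and Uqcrq) had no entry. The NRF1 core was in 7 of the 80 windows (8.75%), against 1.58% of the windows of 27025 genes and 2.92% of those of 11314 detected genes. The ETS core was in 15 windows (18.8%), against 7.05% and 12.6%. The ERR core was in 5 (6.25%), against 4.05% and 2.92%, the HIF core in 16 (20.0%), against 16.6% and 20.9%, and the YY1 core in 0, against 4.53% and 4.25%. The NRF1 core is its own reverse complement and was counted once per site.

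The ratios of genes with and without these cores overlapped. The 20 detected genes with an NRF1 or ETS core had a median of -0.06 and ranged from -0.34 to 0.13, and the 59 with neither had a median of -0.08 and ranged from -0.56 to 1.02. Of the 4 windows shown, Cox6a1 and Atp5l, with both cores, had ratios of -0.28 and -0.11, and Ndufs8 and Cox8b, with neither, had -0.56 and 1.02. A match of letters describes the window only and shows no binding.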

How the data were processed

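RNA was hybridised to one-colour Agilent mouse arrays, 1 per time point. The authors deposited the processed intensity of each spot from Agilent Feature Extraction 10.10.1.1 (per the labels and file headers), background-subtracted and not normalized between arrays, and a value table that differs from it by at most 0.497%. The scanner named in the files differs from that in the methods.

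Control spots were dropped, as were 255 of the other 59305 spots because of an outlier flag on 1 or both arrays, and 0 were saturated. Spots of a probe were averaged, which gave 55678 probes. Log2 intensities were set relative to the array's 75th percentile. Accessions were named through a RefSeq table of GRCm38.p6 (27235 probes, 20660 genes), with the brightest probe per gene.

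With 1 array per time point, no test was made, and precision is limited by the number of arrays. The named genes include, per complex, the highest and lowest ratio, members past 2-fold, tissue isoforms and up to 3 core subunits per complex. Also named are members past 1.3-fold with log2 ratios over 2 errors in size, and the gene with the widest range between probes. Other genes named were chosen after their values were seen. The members and lists were chosen with earlier results of these data known. The counts were tested on simulated data, and 1 gene is counted with the others but not reported here by itself. A total of 12 alternatives were tried. Python 3.11.15 (pandas 2.3.3, numpy 2.4.6) was used, and R 4.3.3 (limma 3.58.1) for normexp and loess.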

Additional observations from a re-analysis of the deposited data

How the results depend on the processing

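Results were recomputed under 12 alternatives of scaling, background, data source, outlier spots, probe choice, dim-probe filter, disturbed areas and, for complexes I and IV only, assignment by symbol. With each array scaled to its median, medians turned positive for all subunits (0.0049), complex I (0.0129), complex II (0.0256) and complex V (0.0259), because 0.098 is added to every ratio, and 52 genes had a ratio above 0 in place of 20. The median of complex V was also above 0 with quantile normalization (0.0354) and with loess (0.0109), and the genes above 0 then numbered 46 and 45. With normexp background correction 0 genes were past 2-fold higher, since Cox8b stood at 0.64, and with the mean over detected probes Uqcrb stood at -0.34, as its diverging probe enters that mean. Assignment by symbol, which puts Ndufa4 and Ndufa4l2 in complex I, gave -0.11 for complex I and -0.09 for complex IV, and no dim-probe filter also gave -0.09 for complex IV, above complex III at -0.13. The medians of complexes III and IV stayed below 0, and the counts past 1.3-fold at 1 higher and 4 lower, under each alternative run for them. No paired analysis was possible because each time point has 1 array, and no replicate could be left out. The arrays give no error between cultures, and signals as dim as that of Cox8b rest on intensities close to background.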
